A study of Mus musculus with 3 samples.

Results

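The sarcomeric myosin gene set comprised 10 genes, chosen by symbol with earlier results of these data known, of 15503 genes listed in the deposited tables. It held the cardiac heavy chains Myh6, Myh7 and Myh7b, the light chains Myl2, Myl3, Myl4 and Myl7, the light chain kinases Mylk3 and Mylk4, and the myosin binding protein Mybpc3. All 10 were listed in all 3 tables and passed the filter in every comparison, a mean of at least 1 FPKM over the libraries compared. FPKM scales fragments by transcript length and by the total mapped, so levels of different genes can be compared within a library.

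Muscle myosin is a hexamer of a pair of heavy chains, each carrying an essential and a regulatory light chain. The adult mouse ventricle runs mainly on the fast alpha heavy chain encoded by Myh6, while the slower beta chain encoded by Myh7 is the main form of the fetal mouse ventricle and comes back in many models of cardiac hypertrophy. Myl2 and Myl3 are the regulatory and essential light chains of the ventricle, Myl7 and Myl4 those of the atrium, and phosphorylation of the regulatory light chain by dedicated kinases tunes the force of contraction.

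RNA came from left ventricles of C57BL6J mice of 3 genotypes, and RNA of 3 mice was pooled into 1 library per genotype. The Egln1_floxed library is the control, which the series' design text calls wild type. The Egln1_Tie2Cre library carries Cre under the Tie2 promoter for deletion of Egln1, which encodes the oxygen-sensing prolyl hydroxylase PHD2. The library labelled Egln1_Hif2a_Tie2Cre carries the same Cre for deletion of Egln1 and of Hif2a, the gene Epas1. The Tie2 promoter acts in endothelial and blood-forming cells, so the Cre was not aimed at the cardiomyocytes that make these myosins. The sources used here give neither age nor sex, and no library measures the Cre without a floxed gene. With 1 library per genotype, no difference below has a replicate check or a test, and each compares pooled libraries.

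The targeted genes were read first. Egln1 stood at 129.5 FPKM in Egln1_floxed, 95.7 in Egln1_Tie2Cre and 129.0 in the library labelled Egln1_Hif2a_Tie2Cre. The Egln1_Tie2Cre level was 1.35-fold lower than the control. As deposited, the library labelled Egln1_Hif2a_Tie2Cre was level with the control, so these values do not bear out its Egln1 label. Epas1 stood at 77.4, 65.0 and 54.5 FPKM in the same order, lowest where its deletion is labelled. Both genes are expressed by many cells outside the reach of the Cre. Directions drawn below from the library labelled Egln1_Hif2a_Tie2Cre rest on a label that Egln1 mRNA, as deposited, does not bear out. The cardiomyocyte markers Tnnt2 (cardiac troponin T), Tnni3, Actc1 and Tnnc1 stood between 3465 and 8947 FPKM in every library. They show heart muscle and do not tell ventricle from atrium. Of the same list of ventricular markers, Irx4 stood at 14.2, 11.3 and 11.6 FPKM and Hey2 at 1.66, 1.94 and 1.55, in the same order. Summed FPKM over the 14164 genes in all 3 tables was 603089 in Egln1_floxed, 572004 in Egln1_Tie2Cre and 743628 in the library labelled Egln1_Hif2a_Tie2Cre. Values given below as a run of 3 follow that order of libraries. Rescaling to a common sum shifted the median log2 ratio of all genes by -0.26 in the library labelled Egln1_Hif2a_Tie2Cre over the control. The Egln1 levels above were not rescaled, so that library's match with the control depends on scaling. In bulk tissue, fewer cells of a type and less RNA per cell cannot be told apart.

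Myh6 stood at 6691 FPKM in Egln1_floxed, 3645 in Egln1_Tie2Cre and 4600 in the library labelled Egln1_Hif2a_Tie2Cre. It encodes the fast alpha heavy chain and lies at chr14:54941921-54966927 on the minus strand (ENSMUSG00000040752; GRCm38, GENCODE M21, since the files name no build). The control was highest and Egln1_Tie2Cre lowest, 1.84-fold below the control, with a log2 ratio of FPKM + 1 of -0.88. The library labelled Egln1_Hif2a_Tie2Cre was 1.45-fold below the control (log2 ratio -0.54). Myh6 remained among the 20 most abundant genes in each library, at ranks 14, 18 and 19.

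Myh7, the slow beta heavy chain, lies next to Myh6 at chr14:54970684-54994626 on the same strand (ENSMUSG00000053093). It stood at 89.95 FPKM in Egln1_floxed, 330.4 in Egln1_Tie2Cre and 25.04 in the library labelled Egln1_Hif2a_Tie2Cre. The Egln1_Tie2Cre library was 3.67-fold above the control (log2 ratio 1.87), and the library labelled Egln1_Hif2a_Tie2Cre was 3.59-fold below it (log2 ratio -1.80). Between those libraries the difference was 13.2-fold (log2 ratio -3.67). Myh7 thus lay on opposite sides of the control in the Cre-carrying libraries, at abundance rank 212 in Egln1_Tie2Cre and 2603 in the library labelled Egln1_Hif2a_Tie2Cre, against 711 in the control. Among the 11888 genes kept in the comparison of the library labelled Egln1_Hif2a_Tie2Cre with the control, it was the 23rd lowest.

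Myh7b encodes an ancient slow-type heavy chain and sits apart from the other cardiac heavy chains, at chr2:155611212-155634307 on the plus strand (ENSMUSG00000074652). Its levels were 36.2 FPKM in Egln1_floxed, 37.8 in Egln1_Tie2Cre and 85.1 in the library labelled Egln1_Hif2a_Tie2Cre. The first pair lay within 1.04-fold of each other, while the library labelled Egln1_Hif2a_Tie2Cre was 2.35-fold above the control (log2 ratio 1.21) and 2.25-fold above Egln1_Tie2Cre. Myh7b was the 96th highest of the 11888 genes kept against the control. It exceeded Myh7 in the library labelled Egln1_Hif2a_Tie2Cre: the ratio of Myh7 to Myh7b was 2.48 in Egln1_floxed, 8.75 in Egln1_Tie2Cre and 0.294 in the library labelled Egln1_Hif2a_Tie2Cre.

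**Figure D1:**
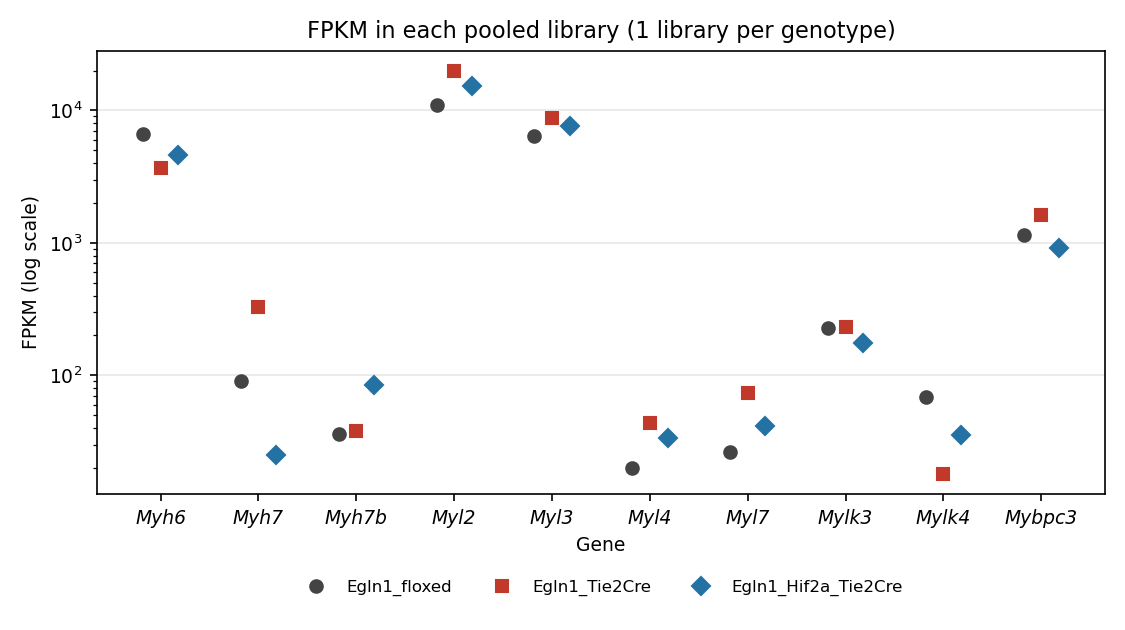
FPKM (log scale) of the 10 genes in each pooled library, 1 point per library. The points show Myh7 at 89.95, 330.4 and 25.04 FPKM and Mylk4 at 68.8, 18.0 and 35.4 FPKM in Egln1_floxed, Egln1_Tie2Cre and the library labelled Egln1_Hif2a_Tie2Cre; no error can be drawn with 1 library per genotype.

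Taken within each pool, the ratio of Myh7 to Myh6 does not depend on how libraries were scaled. Myh7 was 1.34% of Myh6 in Egln1_floxed, 9.07% in Egln1_Tie2Cre and 0.544% in the library labelled Egln1_Hif2a_Tie2Cre. The ratio was 6.74-fold higher than control in Egln1_Tie2Cre, 2.47-fold lower than control in the library labelled Egln1_Hif2a_Tie2Cre, and 16.7-fold apart between these. As shares of the summed FPKM of the 3 cardiac heavy chains, Myh6 made up 98.1%, 90.8% and 97.7%, so alpha myosin mRNA predominated in every library. The Myh7 share was 1.32%, 8.23% and 0.532%, and the Myh7b share 0.531%, 0.941% and 1.81%. The Myh7b share thus followed another order than the Myh7 share, lowest in the control and highest in the library labelled Egln1_Hif2a_Tie2Cre. The sum itself was 6817 FPKM in Egln1_floxed, 4013 in Egln1_Tie2Cre and 4710 in the library labelled Egln1_Hif2a_Tie2Cre.

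**Figure D2:**
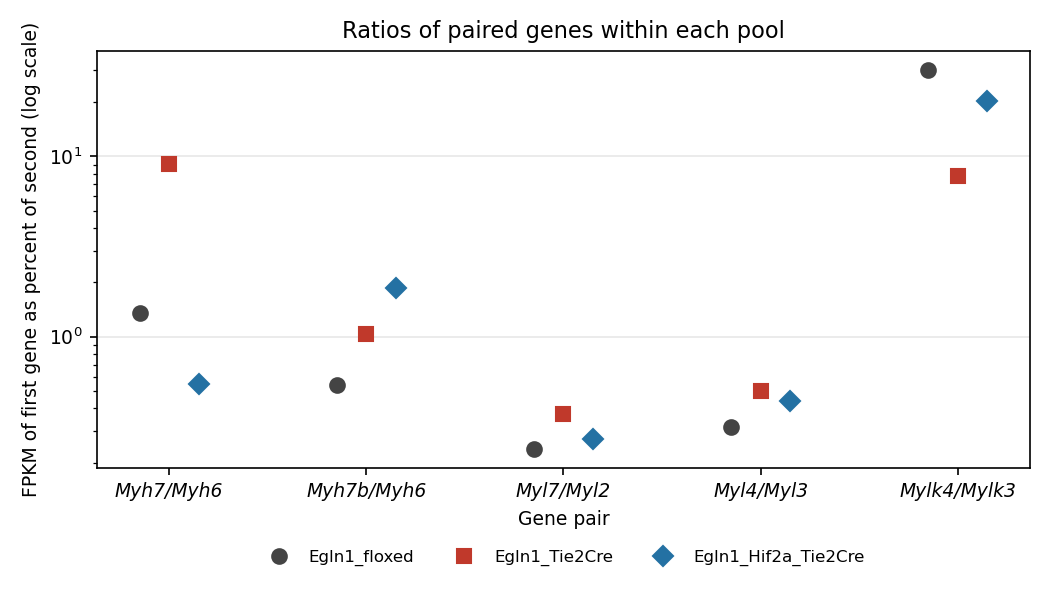
FPKM of the first gene as a percent of the second (log scale) for 5 gene pairs, with 1 point per pooled library. Myh7/Myh6 spans 0.544% to 9.07% and Mylk4/Mylk3 7.76% to 30.2%, while Myl7/Myl2 stays between 0.239% and 0.372%.

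Alpha and beta heavy chain transcripts are close copies, and reads can be shared out between them. Of the 50-base stretches in annotated transcripts, 20.2% of those of Myh6 and 20.0% of those of Myh7 also occur in another gene. The 1381 stretches that the pair share make up 20.2% of the 6851 in Myh6 and 15.6% of the 8858 in Myh7. How the authors' estimate split such reads was not tested. For Myh7b this share was 0.

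Each cardiac heavy chain gene also holds a microRNA in an intron, and the 3 are known together as myomiRs. Their mature forms are shown because the levels of the host genes differed in different directions while the microRNAs nearly share a seed (bases 2 to 8, in capitals; sequences and coordinates from RefSeq, GRCm38.p6). They lie at chr14:54949072-54949093 in Myh6, chr14:54975710-54975731 in Myh7 (both minus strand) and chr2:155622893-155622913 in Myh7b (plus strand).
mmu-miR-208a-3p: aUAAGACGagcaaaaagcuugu
mmu-miR-208b-3p: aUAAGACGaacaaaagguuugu
mmu-miR-499-5p: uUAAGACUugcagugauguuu
The seeds of mmu-miR-208a-3p and mmu-miR-208b-3p differ at 0 bases, and that of mmu-miR-499-5p differs from each at 1 base. The level of the host mRNA was lower than control in both Cre-carrying libraries for the first, on opposite sides for the second, and higher in the library labelled Egln1_Hif2a_Tie2Cre for the last. Levels of the mature microRNAs are not analysed here.

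The long noncoding RNA Mhrt, which is transcribed antisense to Myh7 and was named for its relation to the heavy chains, was looked at after the Myh7 values were seen. It is listed in the tables as D830015G02Rik (ENSMUSG00000097652) and lies at chr14:54968678-54974349 on the plus strand. Mhrt stood at 66.2 FPKM in Egln1_floxed, 29.01 in Egln1_Tie2Cre and 93.6 in the library labelled Egln1_Hif2a_Tie2Cre. Its order over the libraries was the reverse of that of Myh7: 2.28-fold lower than control in Egln1_Tie2Cre, and 1.41-fold higher in the library labelled Egln1_Hif2a_Tie2Cre. The ratio of Mhrt to Myh7 was 0.736, 0.0878 and 3.74. Of its 1214 exonic bases, 484 (39.9%) lie over Myh7 exons. The sources used here do not give strandedness, and without it reads from the overlap cannot be told apart. The same 484 bases are 5.62% of the 8616 exonic bases of Myh7. The authors' deposited tables give Mhrt a q-value of 0.9996 in each comparison.

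The windows before the annotated starts of the 3 heavy chains, and of Mylk4, the kinase with the larger difference, are shown because their levels did not move together (250 bases upstream of the start, 5′ to 3′ on the gene's strand, RefSeq, GRCm38.p6). Capitals mark matches on either strand to core letters of 5 known elements. The letters TATAAA form a box found near many gene starts. The zinc finger factors of the Gata4 family bind GATAA. Factors of the Tead1 family bind the M-CAT core, whose letters are CATTCC. Hypoxia-inducible factors bind a core with the letters ACGTG in its main form or with GCGTG in the other. The windows are Myh6 at chr14:54966608-54966857, Myh7 at chr14:54994627-54994876, Mylk4 at chr13:32783965-32784214 (all minus strand) and Myh7b at chr2:155610993-155611242 (plus strand).
Myh6: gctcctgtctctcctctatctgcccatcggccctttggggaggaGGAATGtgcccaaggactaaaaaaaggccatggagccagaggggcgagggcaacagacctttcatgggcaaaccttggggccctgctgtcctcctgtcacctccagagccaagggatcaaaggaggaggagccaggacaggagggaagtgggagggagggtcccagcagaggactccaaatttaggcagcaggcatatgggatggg
Myh7: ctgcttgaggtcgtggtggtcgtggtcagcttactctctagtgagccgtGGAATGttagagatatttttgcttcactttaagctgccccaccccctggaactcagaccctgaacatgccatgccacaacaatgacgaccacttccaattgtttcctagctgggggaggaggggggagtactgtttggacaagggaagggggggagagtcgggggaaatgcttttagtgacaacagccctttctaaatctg
Myh7b: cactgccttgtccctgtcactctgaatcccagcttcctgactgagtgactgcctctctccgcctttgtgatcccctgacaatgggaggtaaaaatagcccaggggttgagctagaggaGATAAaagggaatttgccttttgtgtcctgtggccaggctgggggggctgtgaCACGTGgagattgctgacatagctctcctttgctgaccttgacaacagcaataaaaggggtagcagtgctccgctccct
Mylk4: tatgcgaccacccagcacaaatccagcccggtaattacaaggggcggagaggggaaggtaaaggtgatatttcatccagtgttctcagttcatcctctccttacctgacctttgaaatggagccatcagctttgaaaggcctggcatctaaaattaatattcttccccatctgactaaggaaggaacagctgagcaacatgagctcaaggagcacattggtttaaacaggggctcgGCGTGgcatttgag
Myh6 and Myh7 each hold a CATTCC match on the reverse strand, 206 and 201 bases before the start, while Myh6 was lower and Myh7 higher than control in Egln1_Tie2Cre. Myh7b holds the letters CACGTG, which read ACGTG on both strands, 78 bases before the start on its own strand, and a GATAA match at 132 bases. Mylk4 holds GCGTG 14 bases before the start. RefSeq lists a second start for Myh7, whose window held no match.

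Such letters are common. Of 32851 promoter windows of the same length, 12.4% hold TATAAA, 16.6% ACGTG, 28.2% GCGTG, 22.6% GATAA and 12.6% CATTCC. Counting every window of a member, 5 of the 10 members hold CATTCC (Myh6, Myh7, Myl3, Myl7 and Mylk3), 6 hold GATAA and 1 holds TATAAA. The TATAAA member is Myl2, which also holds GATAA. Its RefSeq windows end at chr5:122092723 and chr5:122093188, well before the GENCODE start of Myl2 at chr5:122100951. Either form of the hypoxia core occurs in 38.6% of all windows and in 3 of the 10 members (Myh7b, Myl7 and Mylk4). Members with more than 1 window have more places for a match, so counts of members and shares of windows are unlike units. A match is a run of letters and no measure of binding.

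Myl2, the ventricular regulatory light chain, was the most abundant member in every library, at 10992 FPKM in Egln1_floxed, 19883 in Egln1_Tie2Cre and 15211 in the library labelled Egln1_Hif2a_Tie2Cre. It lies at chr5:122100951-122113472 on the plus strand (ENSMUSG00000013936). It ranked 1st of all 15232 genes with a value in Egln1_Tie2Cre and 7th in the other libraries. Egln1_Tie2Cre was 1.81-fold above the control (log2 ratio 0.86) and the library labelled Egln1_Hif2a_Tie2Cre 1.38-fold above it (log2 ratio 0.47).

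Myl3, the ventricular essential light chain, stood at 6363, 8754 and 7688 FPKM (chr9:110741861-110769798, plus strand, ENSMUSG00000059741). Egln1_Tie2Cre was 1.38-fold and the library labelled Egln1_Hif2a_Tie2Cre 1.21-fold above the control, the narrowest spread of the light chains. The excess in the library labelled Egln1_Hif2a_Tie2Cre depends on scaling: with libraries rescaled to the same summed FPKM, its log2 ratio of 0.27 became -0.03.

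Myl7, the atrial regulatory light chain, stood at 26.3 FPKM in Egln1_floxed, 74.0 in Egln1_Tie2Cre and 41.4 in the library labelled Egln1_Hif2a_Tie2Cre (chr11:5896637-5898782, minus strand, ENSMUSG00000020469). Egln1_Tie2Cre was 2.82-fold above the control (log2 ratio 1.46), and the library labelled Egln1_Hif2a_Tie2Cre 1.58-fold above it (log2 ratio 0.64). Myl4, the atrial essential light chain, lies at chr11:104550663-104595753 on the plus strand (ENSMUSG00000061086). It stood at 20.1, 43.5 and 33.8 FPKM, which is 2.16-fold above the control in Egln1_Tie2Cre (log2 ratio 1.08) and 1.68-fold in the library labelled Egln1_Hif2a_Tie2Cre (log2 ratio 0.72). All 4 light chains had the same order over the libraries, highest in Egln1_Tie2Cre and lowest in the control, with the library labelled Egln1_Hif2a_Tie2Cre between; once rescaled, Myl3 in the library labelled Egln1_Hif2a_Tie2Cre lay just below the control instead.

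Measured against their ventricular partners, the atrial forms stayed scarce. Myl7 was 0.239% of Myl2 in Egln1_floxed, 0.372% in Egln1_Tie2Cre and 0.272% in the library labelled Egln1_Hif2a_Tie2Cre, 1.56-fold and 1.14-fold above the control. Myl4 was 0.316%, 0.497% and 0.439% of Myl3, 1.57-fold and 1.39-fold above the control. These shifts were smaller than those of the genes' own levels, since the ventricular chains were also higher in those libraries. Myl4 was 76.6%, 58.8% and 81.6% of Myl7, so the atrial chains kept a similar level to each other. The ventricular pair varied less: the ratio of Myl2 to Myl3 was 1.73, 2.27 and 1.98.

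The main light chains, Myl2 and Myl3, moved apart from Myh6, the main heavy chain. Myl2 stood at 1.64 times Myh6 in Egln1_floxed, 5.46 times in Egln1_Tie2Cre and 3.31 times in the library labelled Egln1_Hif2a_Tie2Cre. Myl3 stood at 0.951, 2.402 and 1.67 times Myh6. The main light chains were therefore higher, relative to the main heavy chain, in both Cre-carrying libraries than in the control. Light chain transcripts are short and heavy chain transcripts long, and the ratios of all genes moved with transcript length. With the median of each gene's length class taken off, the shift of Myl2 over Myh6 was 2.94-fold in Egln1_Tie2Cre, in place of 3.32-fold, and 1.37-fold in the library labelled Egln1_Hif2a_Tie2Cre, in place of 2.01-fold. That of Myl3 over Myh6 was 2.33-fold in place of 2.53-fold, and 1.42-fold in place of 1.76-fold.

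Atrial markers were read beside the atrial light chains, since tissue from the atrium would carry both. Of 15 atrial markers, 13 were in the tables, and the defining atrial gene Bmp10 was among those not listed. The summed FPKM of the 13 was 417 in Egln1_floxed, 2300 in Egln1_Tie2Cre and 482 in the library labelled Egln1_Hif2a_Tie2Cre, mostly from Nppa (atrial natriuretic peptide), at 160.2, 1858 and 255.9 FPKM, and Pam. Their median level was 6.12, 6.06 and 4.64 FPKM. Sln, the atrial calcium pump inhibitor sarcolipin, stood at 7.85, 10.6 and 16.4 FPKM. Kcnj3, an atrial potassium channel subunit, stood at 18.7, 8.02 and 12.7 FPKM, lowest where Myl7 was highest. Pam, which amidates secretory granule peptides in atrial cells, stood at 189, 382 and 156 FPKM. Of the stretches of Nppa 53.4% occur in other genes, and of those of Kcnj3 29.3%. Of the 11 atrial markers kept in Egln1_Tie2Cre over the control, 3 were above it by at least 2-fold (Nppa, Dkk3 and Pam), where 5.16% of all genes were. Kcnj3 was the 1 below it by as much, where 5.63% were. Dkk3 stood at 2.65, 9.07 and 3.83 FPKM, with 0% of its stretches shared. The part of atrial tissue in the Myl7 and Myl4 levels was not tested. Conduction system markers summed to 37.4, 42.4 and 42.5 FPKM over 10 listed genes.

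The cardiac light chain kinase Mylk3, which phosphorylates Myl2, stood at 228 FPKM in Egln1_floxed, 232 in Egln1_Tie2Cre and 174 in the library labelled Egln1_Hif2a_Tie2Cre (chr8:85324303-85386345, minus strand, ENSMUSG00000031698). The first pair were 1.02-fold apart and the library labelled Egln1_Hif2a_Tie2Cre was 1.31-fold below the control (log2 ratio -0.39). Mylk4, a less studied kinase of the same family, stood at 68.8 FPKM in Egln1_floxed, 18.0 in Egln1_Tie2Cre and 35.4 in the library labelled Egln1_Hif2a_Tie2Cre (chr13:32700834-32783954, minus strand, ENSMUSG00000044951). It was 3.82-fold below the control in Egln1_Tie2Cre (log2 ratio -1.88) and 1.94-fold below it in the library labelled Egln1_Hif2a_Tie2Cre (log2 ratio -0.94). Mylk4 was thus highest in the control and lowest in Egln1_Tie2Cre, the order that Myh6 also had, although with rescaled libraries Myh6 was lowest in the library labelled Egln1_Hif2a_Tie2Cre.

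Mylk4 amounted to 30.2% of Mylk3 in Egln1_floxed, 7.76% in Egln1_Tie2Cre and 20.3% in the library labelled Egln1_Hif2a_Tie2Cre. The ratio was 3.89-fold lower than control in Egln1_Tie2Cre and 1.48-fold lower in the library labelled Egln1_Hif2a_Tie2Cre. Of the 2 kinases' summed FPKM, which was 297, 249.9 and 209 FPKM, Mylk4 made up 23.2%, 7.20% and 16.9%.

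Mybpc3, the cardiac myosin binding protein C that bridges thick and thin filaments and whose gene is often mutated in hypertrophic cardiomyopathy, stood at 1149, 1635 and 907 FPKM (chr2:91118144-91136516, plus strand, ENSMUSG00000002100). Egln1_Tie2Cre was 1.42-fold above the control (log2 ratio 0.51), and the library labelled Egln1_Hif2a_Tie2Cre was 1.27-fold below it (log2 ratio -0.34). This is the order of Myh7 and Mylk3: highest in Egln1_Tie2Cre and lowest in the library labelled Egln1_Hif2a_Tie2Cre. Set against Myh6, Mybpc3 amounted to 17.2% in Egln1_floxed, 44.9% in Egln1_Tie2Cre and 19.7% in the library labelled Egln1_Hif2a_Tie2Cre.

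Counted against all genes, 3 of the 10 members (Myh7, Myl4 and Myl7) were at least 2-fold higher in Egln1_Tie2Cre than in the control, where 5.16% of the 11978 genes kept were, and 1 (Mylk4) was at least 2-fold lower, where 5.63% were. At 1.5-fold, 4 were higher against 11.7% of all genes and 2 lower against 12.4%. The members' median log2 ratio was 0.48, beside 0.02 for all genes. In direction, 8 members were higher and 2, Myh6 and Mylk4, lower. Members and lists were chosen with earlier results of these data known. Their counts, here and below, therefore do not test a set against all genes.

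Between the library labelled Egln1_Hif2a_Tie2Cre and the control, 1 member (Myh7b) was at least 2-fold higher, where 1.41% of the 11888 genes kept were, and 1 (Myh7) at least 2-fold lower, where 1.46% were. At 1.5-fold the counts were 3 higher (Myh7b, Myl4 and Myl7) against 6.73% of all genes, and 2 lower (Myh7 and Mylk4) against 5.74%. The median log2 ratio was -0.03 for the members and -0.00 for all genes, with 5 members on each side. With rescaled libraries 73 genes were higher and 445 lower, in place of 168 and 173, and the members' counts became 0 higher and 2 lower. On the log2 scale of FPKM + 1, rescaling took Myl4 (0.72 to 0.43) and Myl7 (0.64 to 0.34) inside 1.5-fold, and Myh6 (-0.54 to -0.84), Mylk3 (-0.39 to -0.69) and Mybpc3 (-0.34 to -0.64) past it.

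Between the library labelled Egln1_Hif2a_Tie2Cre and Egln1_Tie2Cre, 1 member (Myh7b) was at least 2-fold higher against 6.33% of the 11999 genes kept, and 1 (Myh7) at least 2-fold lower against 5.25%. At 1.5-fold, 2 were higher (Myh7b and Mylk4) against 13.1%, and 3 lower (Myh7, Myl7 and Mybpc3) against 12.3%. Members had a median log2 ratio of -0.37, beside -0.02 for all genes. Rescaled, 449 genes were higher and 1374 lower in place of 760 and 630, and 0 members were higher and 3 lower. Rescaling also took Myl2 (-0.39 to -0.76), Myl4 (-0.36 to -0.73) and Mylk3 (-0.41 to -0.79) past 1.5-fold and Mylk4 (0.94 to 0.57) inside it. The 3 comparisons share their libraries, so none of them is independent of the others.

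**Figure D3:**
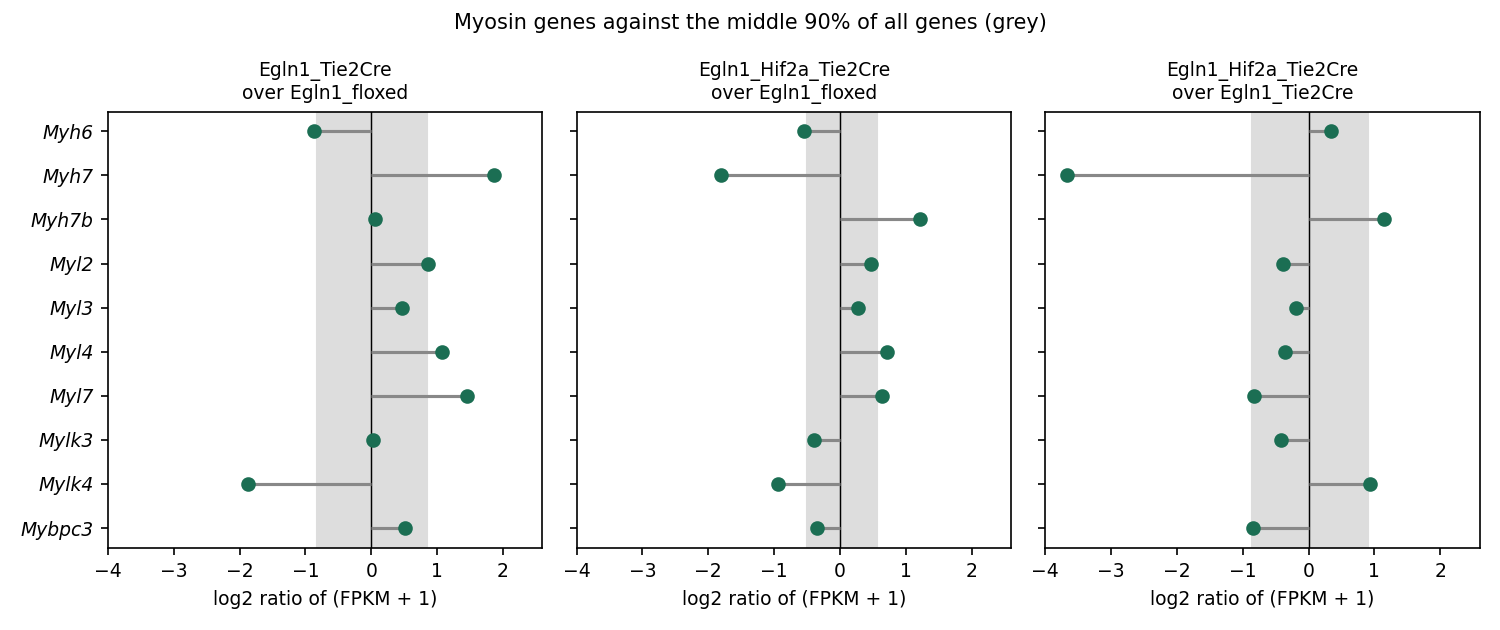
Log2 ratio of FPKM + 1 for each member in the 3 comparisons, with the middle 90% of all genes kept shaded grey. Myh7 lies outside the grey range in all 3 panels, at 1.87, -1.80 and -3.67, and Mylk4 at -1.88, -0.94 and 0.94.

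Against the spread of all genes, the middle 90% of log2 ratios ran from -0.83 to 0.85 in Egln1_Tie2Cre over the control, and 4 members lay above it (Myh7, Myl2, Myl4 and Myl7) and 2 below (Myh6 and Mylk4). For the library labelled Egln1_Hif2a_Tie2Cre over the control the range was narrower, -0.50 to 0.56, with 3 members above (Myh7b, Myl4 and Myl7) and 3 below (Myh6, Myh7 and Mylk4). Between the Cre-carrying libraries it ran from -0.86 to 0.91, with Myh7b and Mylk4 above and Myh7 below. Myh7 and Mylk4 lay outside the range in all 3. For 6 members the library labelled Egln1_Hif2a_Tie2Cre lay between the other libraries (Myh6, the 4 light chains and Mylk4), for 3 it lay on the far side of the control from Egln1_Tie2Cre (Myh7, Mylk3 and Mybpc3), and for Myh7b it lay beyond Egln1_Tie2Cre. With rescaled libraries Myh6 in the library labelled Egln1_Hif2a_Tie2Cre lay just beyond Egln1_Tie2Cre and Myl3 just below the control. The Mylk3 and Myh7b places rest on differences of 1.02-fold and 1.04-fold between the first pair of libraries. The share of all genes with each pattern was not counted, so these places are not read as a trait of the members.

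The log2 ratios of all genes moved with transcript length. In the library labelled Egln1_Hif2a_Tie2Cre over the control, the median was 0.39 for the 458 coding genes under 1000 bases and -0.16 for the 1649 of 6000 bases or more. In Egln1_Tie2Cre over the control the medians were 0.13 and -0.04. The 5th percentiles of these classes in that comparison were -4.38 and -0.62, so the shortest genes spread much farther down. Myl2 and Myl7 fall in the shortest class, and the 3 heavy chains in the longest. With the class median taken off, Myl2 in the library labelled Egln1_Hif2a_Tie2Cre stood at 0.08, Myl7 at 0.24 and Myh6 at -0.38, all inside the middle 90% of their class, although Myl7 and Myh6 lay outside the range of all genes. Beyond their class's range were Myl4 at 0.74, Myh7 at -1.64, Myh7b at 1.37 and Mylk4 at -0.86. In Egln1_Tie2Cre over the control, Myh6 (-0.83), Myh7 (1.91), Myl4 (1.05), Myl7 (1.33) and Mylk4 (-1.86) lay outside their class's range, and Myl2 at 0.73 lay inside. Classes rest on the longest annotated transcript, 3273 bases for Myl4. Before the class median was taken off, Myl4 stood at 0.72 in the library labelled Egln1_Hif2a_Tie2Cre and 1.08 in Egln1_Tie2Cre. These lay below the 95th percentiles of the class under 1000 bases, 0.88 and 1.38. They lay above those of the class from 1000 to 2000 bases, 0.65 and 0.75. The place of Myl4 thus depends on the transcript length used. The part of length in the remaining values was not tested.

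**Figure D4:**
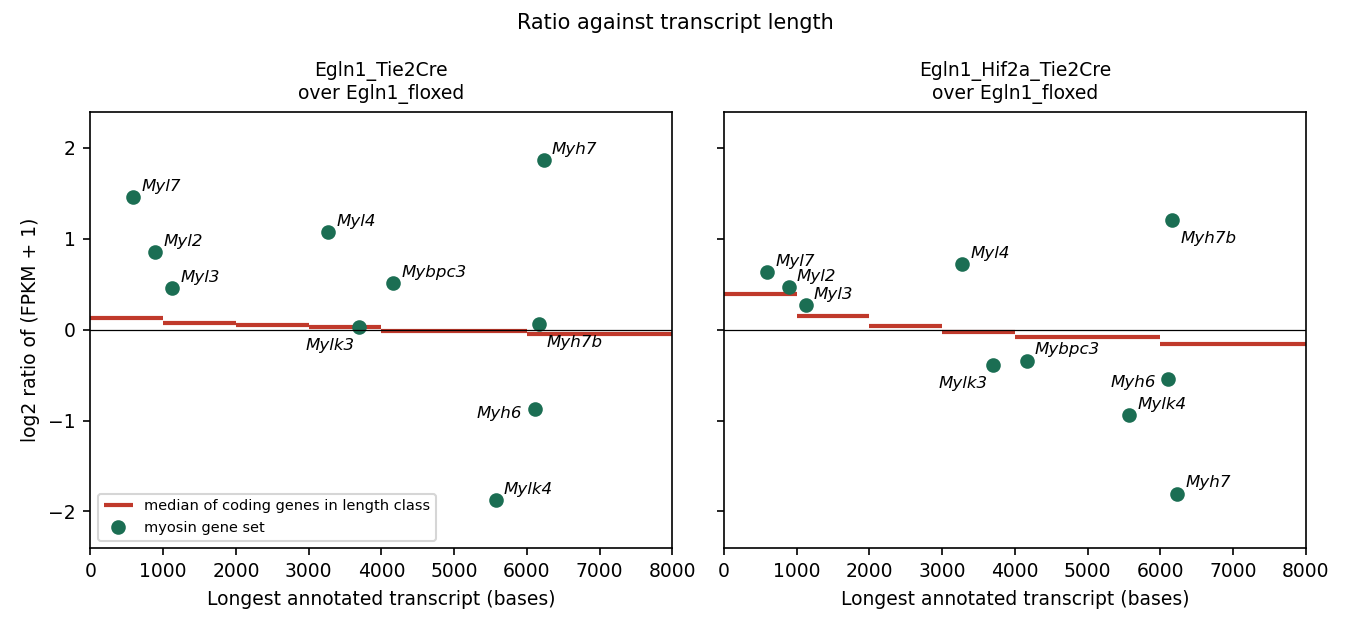
Log2 ratio of FPKM + 1 against the longest annotated transcript, with red lines for the median of coding genes in each length class. In the library labelled Egln1_Hif2a_Tie2Cre over Egln1_floxed the medians run from 0.39 for the shortest class to -0.16 for the longest; Myh7, Myh7b, Myl4 and Mylk4 stand well off their lines.

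Genes with shared stretches were also more often far apart. In Egln1_Tie2Cre over the control, 29.4% of the 2461 genes with over 10% of their stretches in other genes were at least 2-fold apart, beside 5.75% of the 9408 others with a value. Myh6 and Myh7 are the members above that 10%. For the library labelled Egln1_Hif2a_Tie2Cre over the control the shares were 4.07% and 2.44%, and for the library labelled Egln1_Hif2a_Tie2Cre over Egln1_Tie2Cre 31.1% and 6.28%. With such genes left out, the members' count at least 2-fold higher in Egln1_Tie2Cre over the control fell from 3 to 2, and that at least 2-fold lower fell from 1 to 0 both in the library labelled Egln1_Hif2a_Tie2Cre over the control and in the library labelled Egln1_Hif2a_Tie2Cre over Egln1_Tie2Cre, since Myh7 is then not counted in any of them. The other 8 members share at most 2.46% of their stretches.

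The members were also set against 4 cardiomyocyte genes, the most abundant of 14 ventricular markers. Over the whole list, 7 of 13 kept were higher than control in Egln1_Tie2Cre, with a median log2 ratio of 0.14. In the library labelled Egln1_Hif2a_Tie2Cre 5 of 14 were higher than control, with a median of -0.13. The folds below therefore depend on which markers are chosen. The geometric mean of Tnnt2, Tnni3, Actc1 and Tnnc1 was 5278, 6610 and 6172 FPKM. Myh6 was 127%, 55.1% and 74.5% of that mean, 2.30-fold and 1.70-fold below the control. Myh7 was 1.70%, 4.998% and 0.406% of it, 2.93-fold above the control in Egln1_Tie2Cre and 4.2004-fold below it in the library labelled Egln1_Hif2a_Tie2Cre. Mylk4 was 1.30%, 0.272% and 0.573%, 4.79-fold and 2.27-fold below the control. Myl3 moved with the markers, at 1.10-fold and 1.03-fold of its control share. Mybpc3 was 1.14-fold above the control in Egln1_Tie2Cre and 1.48-fold below it in the library labelled Egln1_Hif2a_Tie2Cre, and Myh7b was 1.20-fold below and 2.01-fold above. For Myh7b and Mylk3 in Egln1_Tie2Cre the direction is the reverse of the plain ratio, a reversal that rests on the 4 markers chosen.

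Skeletal muscle also expresses Myh7, Myh7b, Myl2 and Myl3. Of 18 skeletal markers 11 were in the tables, and the fast heavy chains Myh1, Myh2 and Myh4, along with Actn3, Myod1, Myf6 and Pvalb, were not listed. The 11 summed to 65.6, 69.7 and 97.7 FPKM. Most of that sum came from Myl1, a fast skeletal light chain, at 26.1, 9.72 and 46.9 FPKM, and Tnnt1, slow troponin T, at 16.6, 28.2 and 22.3 FPKM. Endothelial markers summed to 358, 434 and 401 FPKM and smooth muscle markers to 250, 206 and 262 FPKM. The part of these cells in the myosin levels was not tested.

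Other heavy chains, the non-muscle and smooth muscle forms, were read beside the cardiac ones. Of 11 on the list 4 were measured (Myh9, Myh10, Myh11 and Myh14), and 0 of 4 were at least 2-fold apart in any comparison, a count too small to set against the shares of all genes given above. At 1.5-fold the only one was Myh14, between the Cre-carrying libraries. Myh9, the main non-muscle heavy chain, stood at 32.4, 34.4 and 31.5 FPKM, and Myh14 at 25.9, 37.5 and 24.0. Of 8 other light chains and kinases measured, 2 lay below the control by at least 2-fold in Egln1_Tie2Cre, where 5.63% of all genes did. As far above it lay 0, where 5.16% of all genes did. In the library labelled Egln1_Hif2a_Tie2Cre 0 lay that far above the control, where 1.41% of all genes did, and 0 below, where 1.46% did. The same 2 lay that far above Egln1_Tie2Cre there, where 6.33% of all genes did. The 2 genes were Myl6, the non-muscle essential light chain, at 174, 15.4 and 287 FPKM, and Myl1. Of their stretches, 8.38% and 11.7% occur in other genes. Their ratios were not set against a length class. A list of 8 is too short to read these counts as a trait of the light chains. Of 7 myosin phosphatase genes only Ppp1r14b, an inhibitor subunit, was at least 2-fold apart, at 35.0, 13.2 and 40.5 FPKM, and 21.7% of its stretches are shared. A list of 7 is too short to set against the shares of all genes.

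Other thick filament and M-band genes were mostly highest in Egln1_Tie2Cre, as Mybpc3 was. Of 9 kept, 8 were higher in Egln1_Tie2Cre than in the control, with a median log2 ratio of 0.42 beside 0.02 for all genes. Only 1 was at least 2-fold higher, where 5.16% of all genes were. Between the Cre-carrying libraries, 0 of 9 were higher in the library labelled Egln1_Hif2a_Tie2Cre, with a median of -0.57 beside -0.02 for all genes. There 5 were at least 1.5-fold lower, where 12.3% of all genes were. These values were not rescaled, and rescaling shifted the median of all genes by -0.33 in that comparison. Myom2, which cross-links myosin filaments at the M-band, stood at 329, 747 and 255.2 FPKM, 2.27-fold above the control in Egln1_Tie2Cre and 2.93-fold lower in the library labelled Egln1_Hif2a_Tie2Cre than there. Myom1, its close relative, stood at 353, 490 and 295 FPKM. Titin (Ttn), the scaffold along the thick filament, was the exception to the first count, at 98.0, 83.9 and 75.4 FPKM. Myom1 and Ttn were chosen after their values were seen.

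Myosin folding factors and regulators of myosin genes were counted in the same way. Among 5 folding genes only Hsp90aa1, an inducible chaperone, was at least 2-fold apart, at 53.2, 26.1 and 138 FPKM, with 47.5% of its stretches shared. A list of 5 is too short to set against the shares of all genes given above. Of 26 regulators listed, 23 were kept in Egln1_Tie2Cre over the control. At 2-fold 0 were higher, where 5.16% of all genes were, and 0 lower, where 5.63% were. At 1.5-fold 1 was higher, where 11.7% of all genes were, and 2 lower, where 12.4% were. Of 24 kept in the library labelled Egln1_Hif2a_Tie2Cre over the control, 0 were 2-fold higher, against 1.41% of all genes, and 0 lower, against 1.46%. There 2 were lower by at least 1.5-fold, where 5.74% of all genes were. These small counts are not read as a trait of the regulators. Thra, the thyroid hormone receptor that activates Myh6 when bound to hormone, stood at 35.7, 44.5 and 34.9 FPKM, and Mef2a, a muscle transcription factor, at 45.4, 35.4 and 39.1. The genes behind the 1.5-fold counts were named after their values were seen. In Egln1_Tie2Cre these were Tbx20 (13.6, 20.5 and 13.9 FPKM), which was higher, and Thrb (4.23, 2.57 and 3.23) and Rxra (17.2, 11.2 and 14.6), which were lower. For the library labelled Egln1_Hif2a_Tie2Cre they were Tbx5 (6.12, 5.82 and 3.59 FPKM), a cardiac T-box factor, and Tead1 (32.1, 21.7 and 20.9), which binds the M-CAT core.

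Genes with the most similar pattern were found by Euclidean distance in the pair of log2 ratios over the control, among 7399 named genes at a mean of 5 FPKM or more. These distances use 2 points per gene that share the control library. The nearest gene to Myh7 was Bdh1, a ketone body dehydrogenase, at 75.1, 328 and 32.5 FPKM (distance 0.67, with 11.1% of its stretches shared). Fam107a (0.93) and Acer2 (0.99) followed. Nearest to Mylk4 were Fam220a (0.35; 60.0% of its stretches shared), Scarna2 (0.54) and the sodium channel subunit Scn4b (0.59) at 8.52, 2.89 and 4.19 FPKM. Myh6 and Myl7 had closer neighbours. For Myh6 these were Irgm1 (0.04), Fv1 (0.06) and Steap3 (0.07). For Myl7 they were the cartilage matrix gene Cilp (0.10), Rn7sk (0.16, with 68.1% of its stretches shared) and Ccdc137 (0.16). The nearest gene to Myh7 lay farther off than those of the other 3 members searched. The distance uses the same ratios that place Myh7 among the extremes, where genes are sparse. It is therefore not read as a further trait of Myh7.

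The authors' deposited tables carry a q-value for each pair of libraries. In the authors' deposited table, Mylk4 had q = 0.0112 in Egln1_Tie2Cre against the control, and Myh7 had q = 0.2558. In the authors' deposited table of the library labelled Egln1_Hif2a_Tie2Cre against the control, Myh7 had q = 0.1265. Between the Cre-carrying libraries the authors' deposited table gave Myh7 q = 0.0112 at a fold of 13.19. In the authors' deposited tables for the library labelled Egln1_Hif2a_Tie2Cre, Mylk4 had q = 0.9996 against each other library. Every member other than Myh7 and Mylk4 had q = 0.9996 in each of the authors' deposited tables. Genes with q of at most 0.05 in the authors' deposited tables numbered 69 of 14827, 2 of 14843 and 85 of 14894, of which 1, 0 and 1 were members. These q-values compare libraries and do not measure the spread between mice.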

How the data were processed

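Left ventricular RNA was sequenced as 3 pooled libraries, 1 per genotype, and the values start from the authors' 3 tables. Per the submitters' processing notes, TopHat2 and Cuffdiff were used; the sources used here do not give versions, genome build, annotation or strandedness. The tables hold, per the file headers, FPKM per library, a fold (ratio) without sign and a q-value per gene for each pair of libraries, all computed by the authors. FPKM keeps no read counts, so the depth is unknown and no interval is given. Libraries were assigned from the sample titles in each table's name, and their FPKM recurred identically for 14368 of 14369, 14489 of 14489 and 14367 of 14367 shared genes. The floxed exception differed by a relative 0.00088.

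Plain FPKM ratios and log2 ratios of FPKM + 1, which understate differences of low genes, were computed with Python 3.11.15, numpy 2.4.6 and pandas 2.3.3. Genes at a mean of 1 FPKM or more over a pair were kept, and those at least 2-fold apart counted. No p-value was computed. Coordinates, lengths and shared 50-base stretches came from GENCODE M21 (GRCm38), and promoter and microRNA sequences from RefSeq (GRCm38.p6). Members and lists were chosen with earlier results of these data known. Named were all members; of other pathway lists, genes at least 2-fold apart at an FPKM of at least 5, else the 2 most abundant; up to 4 markers per list; and the 3 nearest genes of Myh6, Myh7, Myl7 and Mylk4. Mhrt, Myom1, Ttn, Myh10, Myh11, Irx4, Hey2, Dkk3 and 5 regulators were named outside this rule. Alternatives were pseudocount, filters, fold threshold, centring, rescaling to a common summed FPKM, values from the other table, and transcript length for within-pool ratios. Leaving out genes with over 10% shared stretches, and taking off length class medians, were added after seeing the data.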

Additional observations from a re-analysis of the deposited data

How the results depend on the processing

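The 30 log2 ratios of members kept their direction and their side of 1.5-fold (on the FPKM + 1 scale) with a pseudocount of 0.1, with centring and with values from the other tables. Rescaling to a common summed FPKM took 9 of the 30 across 1.5-fold, 6 outward and 3 inward, all in comparisons of the library labelled Egln1_Hif2a_Tie2Cre. It changed 2 signs: Myl3 in the library labelled Egln1_Hif2a_Tie2Cre over the control (0.27 to -0.03) and Myh6 in the library labelled Egln1_Hif2a_Tie2Cre over Egln1_Tie2Cre (0.34 to -0.04). Rescaling shifted the median of all genes by 0.06, -0.26 and -0.33 in Egln1_Tie2Cre over the control, the library labelled Egln1_Hif2a_Tie2Cre over the control, and the latter over Egln1_Tie2Cre; counts follow in that order, higher then lower. All genes at least 2-fold apart numbered 618 and 674, 168 and 173, and 760 and 630. With no filter they were 1131 and 1343, 633 and 610, and 1426 and 1109. With a mean FPKM of at least 5 they were 347 and 394, 53 and 49, and 444 and 352. At 1.5-fold they were 1397 and 1486, 800 and 682, and 1576 and 1480. Rescaled, the latter comparisons gave 73 and 445, and 449 and 1374. With genes of at most 10% shared stretches they were 261 and 280, 112 lower in the second, and 330 and 261. For members, 1.5-fold gave 2 lower in the first, 3 and 2 in the second, and 2 and 3 in the last; rescaling gave 0 and 2, and 0 and 3; leaving out shared stretches gave 2 higher in the first and 0 lower in the latter comparisons. Multiplied by transcript length, Myl7 was 0.159%, 0.247% and 0.181% of Myl2; length-weighted values compare fragments, not transcripts. List counts moved for 9 of 36 with no filter and 2 of 36 at the higher filter. No paired analysis was possible because each genotype has 1 library, and for the same reason none could be left out. Depth is unknown.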
